A study of Arabidopsis thaliana with 12 samples.

Results

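The NIGT1/HHO genes encode a small clade of GARP-type MYB transcription factors of Arabidopsis thaliana. The clade was taken as 6 loci, HHO1 (AT3G25790), HHO2 (AT1G68670), HHO3 (AT1G25550), HHO4 (AT2G03500), HHO5 (AT4G37180) and HHO6 (AT1G49560), and a member was kept where a probe set of the array is paired with that gene alone. This left 5 of the 6 loci, each with 1 probe set, among 16550 genes measured in this way; HHO4, also described as EARLY FLOWERING MYB, has no probe set of its own in the annotation used and was not analysed here. No other probe set repeats the values of any of the 5.

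RNA was measured on 12 single-colour Affymetrix arrays, 1 per sample, in 4 groups of 3: estradiol shoots, DMSO shoots, estradiol roots and DMSO roots. All 12 samples come from seedlings that carry CLE2, the gene of a small secreted signalling peptide, under an estradiol-inducible system, so the DMSO seedlings carry the construct too. The seedlings were grown at 22 °C under continuous white light, and at 7 days of age the roots alone received β-estradiol, labelled as 5 mM, or the solvent DMSO; after 24 h roots and shoots were collected apart. The series asks which genes act downstream of CLE2, both in the roots that were exposed and in the shoots above them. No seedlings without the construct were given estradiol, the labels do not name the promoter that drives the inducible system, and the effects of estradiol and of CLE2 cannot be told apart.

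Transcription factors of this clade act mainly as repressors. In Arabidopsis, HHO1, HHO2 and HHO3, with their close relative HRS1, are induced by nitrate through NIN-like proteins, and repress genes of high-affinity nitrate uptake and their own promoters; they also link nitrate supply to the phosphate starvation response and to root growth. HHO6 is little studied. HRS1 has no probe set of its own in the annotation and was not analysed here, and the same holds for CLE2, so its induction could not be checked.

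Values are log2 signal as deposited. Within a group the lowest correlation between arrays was 0.986. The organ labels were checked with marker lists: all 7 measured root markers of the 21 listed were higher in the roots of DMSO seedlings than in their shoots, and all 3 measured photosynthesis genes of the 26 listed were lower (limma, Benjamini-Hochberg adjusted p under 0.05). Nothing in the labels shows that the replicates were grown separately, and the p-values therefore cover the spread among these arrays alone, part of which may be technical. In whole organs, fewer cells that express a gene and less RNA per cell cannot be told apart.

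In the shoots of estradiol seedlings, HHO1, HHO2, HHO3 and HHO5 each had all 3 arrays above all 3 arrays of DMSO shoots, while HHO6 did not. The log2 differences of the 4 genes lay between 0.30 and 0.76, and that of HHO6 was -0.17. None of the 5 passed the threshold over all genes (limma, adjusted p under 0.05), which 0.133% of genes passed as higher and 0.0302% as lower in this comparison. All 4 had an unadjusted p under 0.05, against 5.79% of all genes in this direction, and groups that do not overlap in this direction were found for 6.85% of all genes. The 5 genes had a median log2 difference of 0.51, beside -0.0038 over all 16550 genes. The clade was chosen with results for HHO2 and HHO3 already known, so these counts are a description of the clade and not independent evidence.

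**Figure D1:**
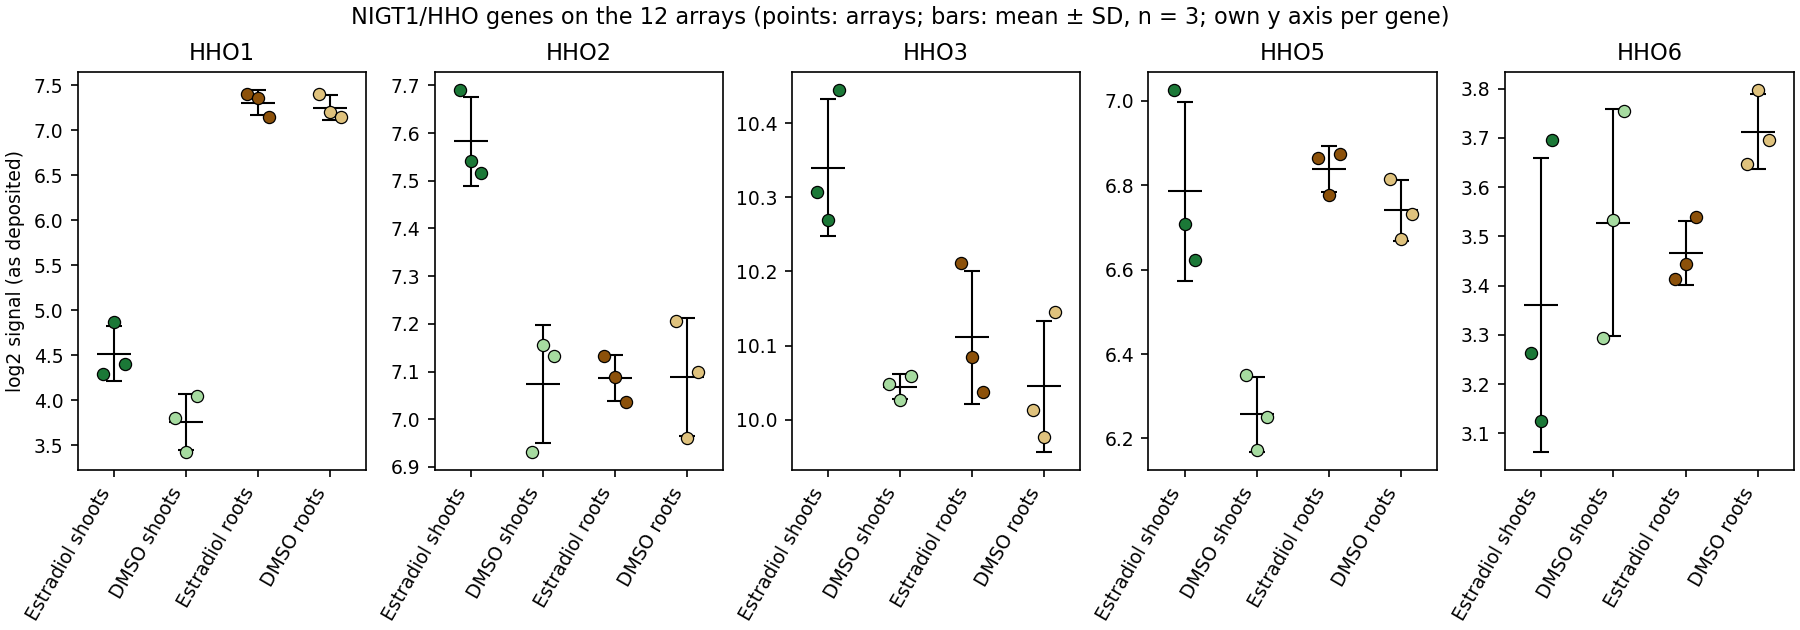
Log2 signal of the 5 measured NIGT1/HHO genes on each of the 12 arrays (points), with group mean and SD (bars, n = 3), 1 panel per gene with its own y axis. HHO1, HHO2, HHO3 and HHO5 sit higher in estradiol shoots than in DMSO shoots on every array, and HHO1 is far higher in both root groups, at 7.15 to 7.40.

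HHO2, a nitrate-induced repressor that also acts in phosphate uptake and root growth, had log2 signals of 7.69, 7.54 and 7.52 in estradiol shoots, against 6.93, 7.16 and 7.13 in DMSO shoots. The lowest estradiol array lay above the highest DMSO array. The difference was 0.51 ± 0.10 (SE), a 1.42-fold higher signal, and limma's adjusted p was 0.0870. By the size of its p-value HHO2 stood 59th of 16550 genes in shoots. In roots its signals were 7.13, 7.09 and 7.04 with estradiol and 7.21, 6.96 and 7.10 with DMSO, with overlapping groups and a difference of -0.0029 ± 0.10 (SE). All 3 estradiol shoot arrays were above each of the other 9 arrays, while the DMSO shoots and both root groups overlapped one another.

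HHO3, another nitrate-induced repressor of the clade, had signals of 10.31, 10.27 and 10.44 in estradiol shoots, against 10.05, 10.03 and 10.06 in DMSO shoots. The groups did not overlap, but the difference was the smallest of the 4 at 0.30 ± 0.09 (SE), or 1.23-fold, with an adjusted p of 0.284 (limma). Root signals were 10.21, 10.08 and 10.04 with estradiol and 10.01, 9.98 and 10.14 with DMSO, and overlapped. As for HHO2, each estradiol shoot array was above each of the other 9 arrays. That pattern was counted after the values were seen; 2.77% of all genes show it, and 2 of the 5 genes of the clade.

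HHO5 had signals of 7.03, 6.71 and 6.62 in estradiol shoots, against 6.35, 6.17 and 6.25 in DMSO shoots. The difference of 0.53 ± 0.11 (SE), or 1.44-fold, had an adjusted p of 0.106 (limma), and the groups did not overlap. In roots the signals were 6.87, 6.78 and 6.87 with estradiol and 6.82, 6.67 and 6.73 with DMSO. DMSO shoots thus held the lowest 3 of the 12 values, and the other 3 groups overlapped one another.

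HHO1, a nitrate-induced repressor that acts with HRS1 on primary root growth, had signals of 4.28, 4.86 and 4.40 in estradiol shoots, against 3.80, 3.42 and 4.05 in DMSO shoots. In the values as deposited this was the largest difference of the clade, 0.76 ± 0.18 (SE) or 1.69-fold, with an SD of 0.31 in each shoot group, the widest of these 4 genes; limma's adjusted p was 0.170. It ranked 105th from the largest rise among 16550 genes. In roots HHO1 was at 7.40, 7.36 and 7.15 with estradiol and at 7.40, 7.2 and 7.15 with DMSO. Both shoot groups lie below the array medians of all genes tested, which were between 5.11 and 5.35, and with 16 added to the linear signal the shoot difference was 0.40, below the 0.46 of HHO2 and the 0.45 of HHO5.

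HHO6 had signals of 3.26, 3.12 and 3.70 in estradiol shoots, against 3.29, 3.53 and 3.75 in DMSO shoots. The groups overlapped, with a difference of -0.17 ± 0.15 (SE) and an unadjusted 95% confidence interval from -0.50 to 0.17. The size of this difference rested on single arrays. It was -0.33 without estradiol shoot replicate 3 (limma, adjusted p = 0.476, with an unadjusted p under 0.05) and -0.28 without DMSO shoot replicate 1. It was -0.048 without estradiol shoot replicate 2, -0.053 without DMSO shoot replicate 3 and -0.12 without estradiol shoot replicate 1. All 12 values were at most 3.80, below the median of all genes on every array.

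In the treated roots, none of the 5 genes passed the threshold (limma, adjusted p of 0.9998 each), and neither did any of the 16550 genes, 0% in either direction, although 5.17% had an unadjusted p under 0.05; of the 5 genes 0 did. For HHO1, HHO2, HHO3 and HHO5 the unadjusted 95% confidence intervals of the root difference included 0 and reached at most 0.45 upward. For HHO2 the interval ran from -0.22 to 0.21, for HHO3 from -0.13 to 0.26, for HHO5 from -0.14 to 0.34 and for HHO1 from -0.34 to 0.45. HHO6 had signals of 3.41, 3.44 and 3.54 in estradiol roots, against 3.65, 3.80 and 3.69 in DMSO roots. These groups did not overlap, as was so in this direction for 7.05% of all genes, and the difference was -0.25 ± 0.15 (SE), or -0.11 with 16 added to the linear signal. With the organs fitted apart its SE was 0.09, and limma's unadjusted p was 0.0299 with an adjusted p of 0.675. The absence of an unadjusted p under 0.05 for HHO6 in roots thus depended on the shared fit.

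**Figure D2:**
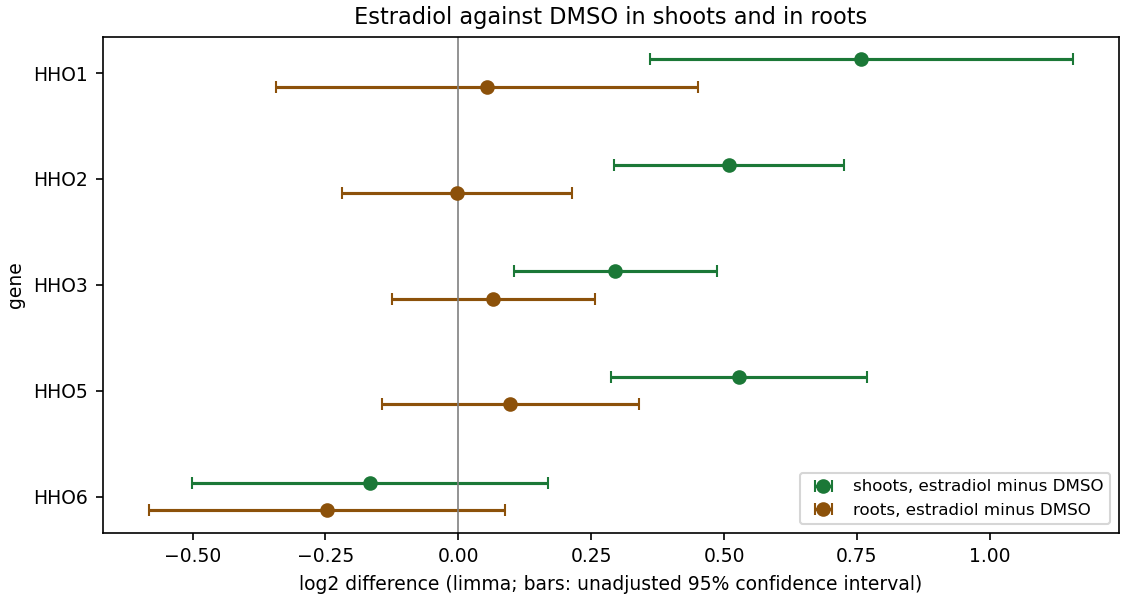
Log2 difference between estradiol and DMSO for each measured NIGT1/HHO gene, in shoots and in roots, with limma's unadjusted 95% confidence interval (bars). The shoot intervals of HHO1, HHO2, HHO3 and HHO5 lie above 0, from 0.10 at the lowest bound, and all 5 root intervals include 0.

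Whether the estradiol difference itself differed between organs was tested as an interaction. Shoot minus root effects were 0.70 ± 0.26 for HHO1, 0.51 ± 0.14 for HHO2, 0.43 ± 0.15 for HHO5, 0.23 ± 0.12 for HHO3 and 0.08 ± 0.22 for HHO6 (SE). None passed the threshold, as no gene did (0%), and limma's adjusted p lay between 0.607 for HHO2 and 0.999 for HHO6. An unadjusted p under 0.05 was found for HHO1, HHO2 and HHO5, 3 of the 5, against 3.44% of all genes in this direction. With 16 added to the linear signal the order changed, to 0.47 for HHO2, 0.36 for HHO5 and 0.35 for HHO1 (limma, adjusted p = 0.372, 0.660 and 0.857). A response of these genes in shoots alone is therefore not shown.

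The organs differed for some of these genes without estradiol. HHO1 was 11.3-fold higher in DMSO roots than in the shoots, with means of 7.25 ± 0.13 and 3.76 ± 0.31 (log2 signal, SD, n = 3) and a difference of 3.49 ± 0.18 (SE; limma, adjusted p = 1.85e-08). With 16 added to the linear signal, which shrinks the differences of low signals, the HHO1 difference was 2.51, or 5.68-fold. HHO5 was higher in DMSO roots by 0.48 ± 0.11 (SE; limma, adjusted p = 0.00299), or 1.40-fold. Differences of 0.02 ± 0.10 for HHO2, 0.00027 ± 0.087 for HHO3 and 0.19 ± 0.15 for HHO6 (SE) did not pass. Thus 2 of the 5 were higher in roots and 0 lower, where 26.6% and 25.8% of all genes were.

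In estradiol seedlings, 1 of the 5 genes passed as higher in roots and 2 passed as lower. HHO1 was again higher in roots, by 2.79 ± 0.18 (SE; limma, adjusted p = 1.26e-07), or 6.91-fold, and by 2.16, or 4.46-fold, with 16 added to the linear signal. HHO5 had a difference of only 0.05 ± 0.11 (SE; limma, adjusted p = 0.707). HHO2 was lower in estradiol roots than in estradiol shoots, with means of 7.09 ± 0.05 and 7.58 ± 0.09 (SD, n = 3) and a difference of -0.50 ± 0.10 (SE; limma, adjusted p = 0.00122). HHO3 was lower in estradiol roots, with a difference of -0.23 ± 0.09 (SE; limma, adjusted p = 0.0452). That call was lost after quantile normalization (limma, adjusted p = 0.141) and without estradiol shoot replicate 1 or 3, estradiol root replicate 2 or 3, DMSO root replicate 1 or any 1 of the 3 DMSO shoot replicates (limma, adjusted p of 0.0549 to 0.154). In this comparison 26.5% of all genes were higher and 26% lower. It shares the estradiol shoot arrays with the shoot comparison, so both carry the same high values, and the change between the 2 organ comparisons is the interaction given above.

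By mean signal HHO1 ran from estradiol roots over DMSO roots and estradiol shoots to DMSO shoots; the 2 root groups overlapped, and each shoot group stood apart from its neighbours in the order. HHO2 and HHO3 each had estradiol shoots on top, followed by 3 groups that overlapped. For HHO5 estradiol roots, estradiol shoots and DMSO roots overlapped, and DMSO shoots stood below them. For HHO6 only the root groups stood apart from each other.

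Since HHO1 and HHO5 were higher in roots, the root markers were also read on the shoot arrays. The median log2 signal of the 7 root markers was between 3.98 and 4.52 on estradiol shoot arrays and between 3.64 and 4.49 on DMSO shoot arrays, and their summed linear signal, as log2, between 11.96 and 12.07 and between 11.89 and 12.08. These ranges overlap. By gene, 6 of the 7 had a shoot difference above 0, against 49.2% of all genes, and none of the 7 passed the threshold. An unadjusted p under 0.05 (limma) was found for 1 of the 7, BGLU22, against 5.79% of all genes in this direction. BGLU22, a β-glucosidase gene, had a log2 difference of 1.22 ± 0.35 (SE; limma, adjusted p = 0.276), larger than that of HHO1. Its relative BGLU21 was at 0.78 ± 0.43 and EXPA18, a root hair expansin gene, at 0.54 ± 0.34 (SE; limma, adjusted p = 0.597 and 0.650). For BGLU21 and EXPA18 the shoot groups overlapped. For BGLU22 they only met, as the lowest estradiol shoot array and the highest DMSO shoot array were equal at 4.19. The mean signals of BGLU22, BGLU21 and EXPA18 in both shoot groups lay below the array medians of all genes. The DMSO shoot arrays of BGLU22, BGLU21 and EXPA18 were widely spread, with SDs of 0.96, 1.11 and 0.84. The sizes of these differences are therefore uncertain. The other 4 lay between -0.0014 and 0.04, with LBD29, a lateral root gene, at -0.0014 ± 0.20 (SE). The part of root RNA in the shoot differences of HHO1 and HHO5 was not tested.

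On the linear scale the excess of HHO1 in estradiol shoots over DMSO shoots came to 6.14% of its DMSO root signal, and that of HHO5 to 31.6%. The HHO1 value rests on low linear signals, 22.9 in estradiol shoots and 13.5 in DMSO shoots. The same measure was at most 1.71% for the 7 root markers (for EXPA18). That value also rests on low linear signals, 18.7 in estradiol shoots and 12.9 in DMSO shoots. For HHO2 and HHO3 the estradiol shoot signal lay above the signal of every root array. What these values say about root RNA in the shoot samples was not tested. Photosynthesis markers overlapped between the shoot groups, with array medians of 10.65 to 10.86 in estradiol shoots and 10.71 to 10.82 in DMSO shoots.

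**Figure D3:**
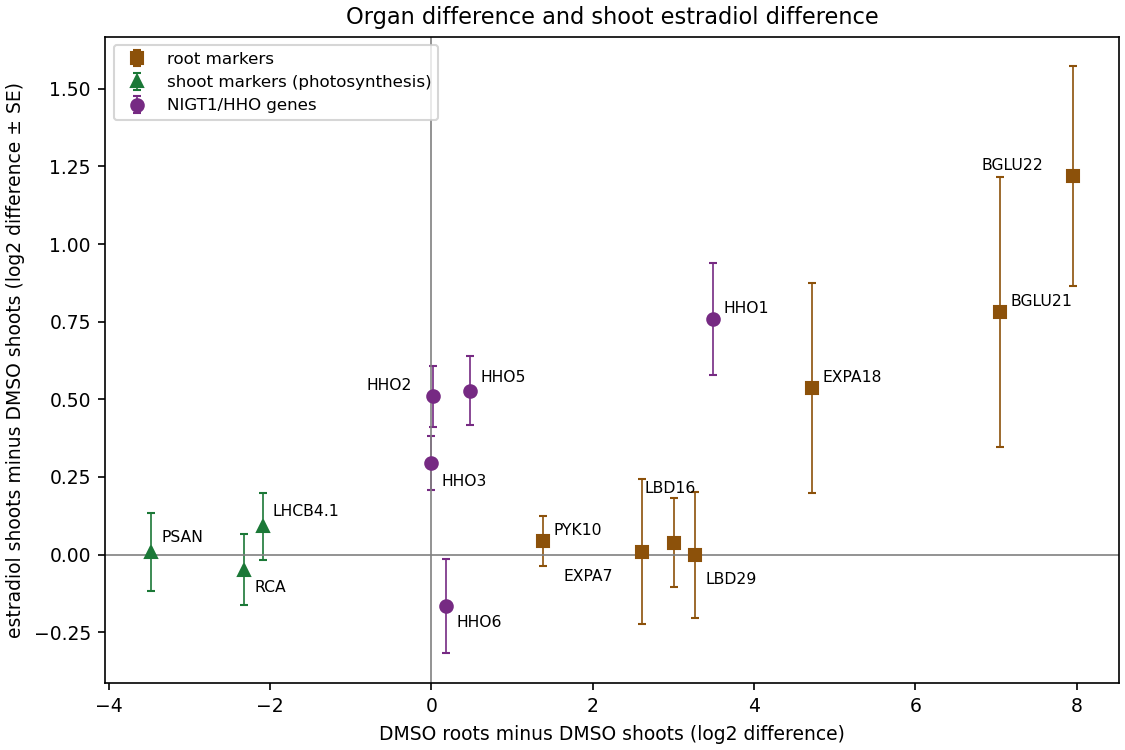
Difference between estradiol and DMSO shoots (y axis, log2, bars SE) against the difference between DMSO roots and DMSO shoots (x axis, log2) for the NIGT1/HHO genes and the root and shoot markers. HHO1, at 3.49 on the x axis, is at 0.76 on the y axis. Of the 7 root markers, 6 lie above 0 on the y axis, BGLU22 highest at 1.22, with shoot groups that meet at 4.19 (log2 signal). Among these EXPA7, LBD16 and PYK10 are near 0, between 0.009 and 0.04, and LBD29 is at -0.0014.

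The genes around the clade were thinly covered. Lists covered nitrate uptake, nitrate signalling, nitrogen assimilation, described NIGT1 targets, phosphate starvation, other GARP factors and flowering. Together with HRS1 they held 114 further genes, of which 9 had a probe set of their own. None of the 23 assimilation genes or the 18 phosphate starvation genes was among them. In shoots and in roots 0 of the 9 passed the threshold (limma); at an unadjusted p under 0.05, 1 was higher and 1 lower in shoots, against 5.79% and 4.16% of all genes, and 0 had such a p in roots, against 5.17%.

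NRT2.5, a high-affinity nitrate transporter and the only measured one of 8 described NIGT1 targets, was at 2.84 ± 0.24 in estradiol shoots and 3.02 ± 0.23 in DMSO shoots (log2 signal, SD, n = 3), a difference of -0.18 ± 0.21 (SE). The groups overlapped. NPF6.2, a nitrate transporter of the leaf petiole and the other measured one of the 14 uptake genes, had a difference of -0.03 ± 0.09 (SE), with a high signal of 11.12 ± 0.04 in estradiol shoots and 11.14 ± 0.13 in DMSO shoots (SD, n = 3). CEPD1 and CEPD2, glutaredoxin-like shoot-to-root signals of nitrogen demand, were the 2 measured genes of 25 in nitrate signalling. Their shoot differences were 0.21 ± 0.33 and 0.02 ± 0.22 (SE).

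Among the other GARP factors 4 of 23 were measured, with a median shoot difference of 0.06. MYBC1, a negative regulator of freezing tolerance, had a shoot difference of 0.40 ± 0.17 and MYR2 one of -0.37 ± 0.17 (SE; limma, adjusted p = 0.484 and 0.496). PHL2, a phosphate response regulator, was at 0.02 ± 0.08 and the response regulator ARR18 at 0.10 ± 0.15 (SE). UFO, an F-box gene, was the 1 measured gene of 11 in flowering, at 0.39 ± 0.19 (SE; limma, adjusted p = 0.537).

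Between organs, 6 of these 9 genes passed the threshold in at least 1 of the 2 organ comparisons, as 60.6% of all genes did. MYBC1 was higher in DMSO roots than in the shoots by 1.3 ± 0.17 (SE; limma, adjusted p = 6.27e-05). NPF6.2, NRT2.5, CEPD1, CEPD2 and ARR18 were lower in DMSO roots, with log2 differences of -0.67, -0.61, -0.95, -1.09 and -0.55. Of these, all but NPF6.2 had mean signals below the array medians of all genes. CEPD2 was lowest, at 2.65 in DMSO shoots and 1.56 in DMSO roots. For NRT2.5 the DMSO groups overlapped (limma, adjusted p = 0.0265), and with estradiol its organ difference was -0.18 (limma, adjusted p = 0.495).

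**Figure D4:**
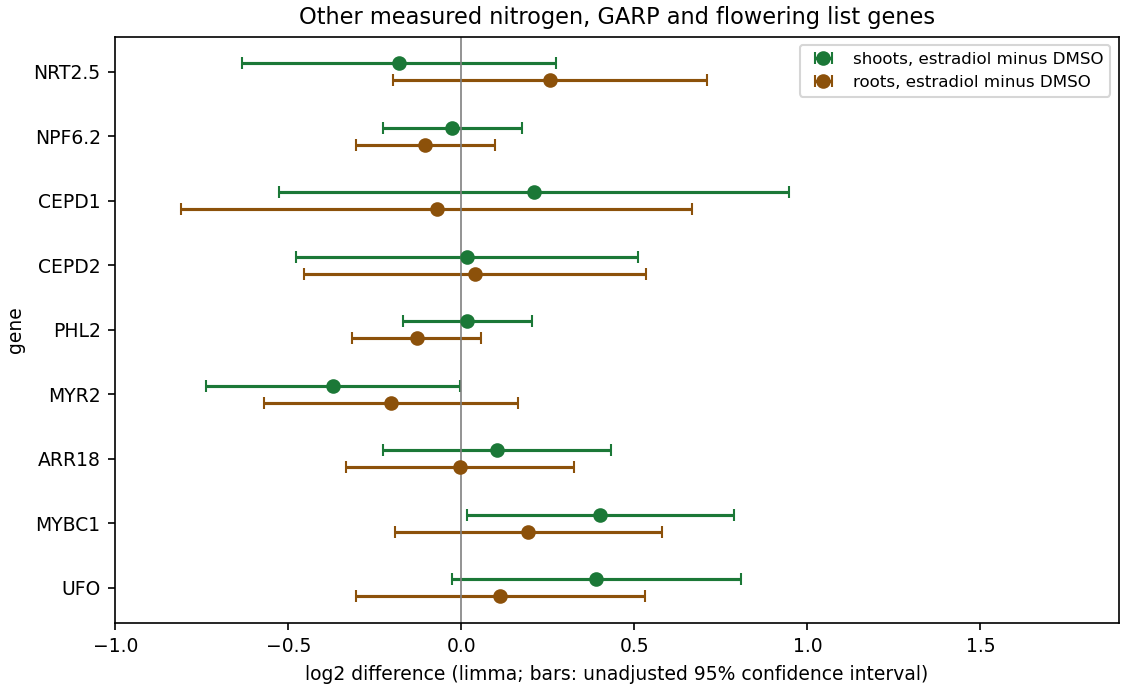
Log2 difference between estradiol and DMSO in shoots and in roots for the 9 measured genes of the surrounding lists, with limma's unadjusted 95% confidence interval (bars). The shoot interval of MYBC1 lies above 0 and that of MYR2 below 0, at differences of 0.40 and -0.37; the other intervals include 0.

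Genes with the most similar pattern were ranked by Pearson correlation over the 12 arrays after the mean of each organ was removed, among genes above the median level. This leaves the treatment difference in, so the points share their groups, and the ranking is a description. For HHO5 the closest was AT2G24550 (r = 0.957), which itself rose in estradiol shoots by a log2 difference of 1.00 (limma, adjusted p = 0.0338), followed by AT4G05150 and AT1G56220 (r = 0.931 each). HHO2 was closest to AT1G64050 (r = 0.935), the glucosyltransferase gene UGT73B1 (r = 0.931) and AT4G37480 (r = 0.928). HHO3 was closest to AT2G15695 (r = 0.922), AT1G27290 (r = 0.921) and AT3G62650 (r = 0.917).

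HHO1 was closest to AT1G06060 (r = 0.949), AT1G30720 (r = 0.888) and AT2G26190 (r = 0.879), and HHO6 to AT4G02940 (r = 0.908), AT2G21580 (r = 0.886) and AT5G18760 (r = 0.884). Within the clade, by the same measure, HHO2 and HHO5 were the most alike (r = 0.857). Pairs among HHO1, HHO2, HHO3 and HHO5 had r between 0.666 and 0.857, and HHO6 had r between -0.527 and -0.197 with the other 4.

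The shoot differences kept their sign under all alternatives run for HHO1, HHO2, HHO3 and HHO5, but their side of the threshold depended on the model. HHO2 passed with eBayes trend and robust settings (limma, adjusted p = 0.0183), among genes above the median level (0.0190), with 16 added to the linear signal (0.0227) and after array medians were subtracted (0.0367). HHO5 passed under the first 3 of these, with adjusted p of 0.0365, 0.0271 and 0.0388. With the 6 shoot arrays fitted alone, HHO2 had an adjusted p of 0.424 and HHO5 one of 0.436. HHO1 and HHO3 passed under none of the alternatives.

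**Figure D5:**
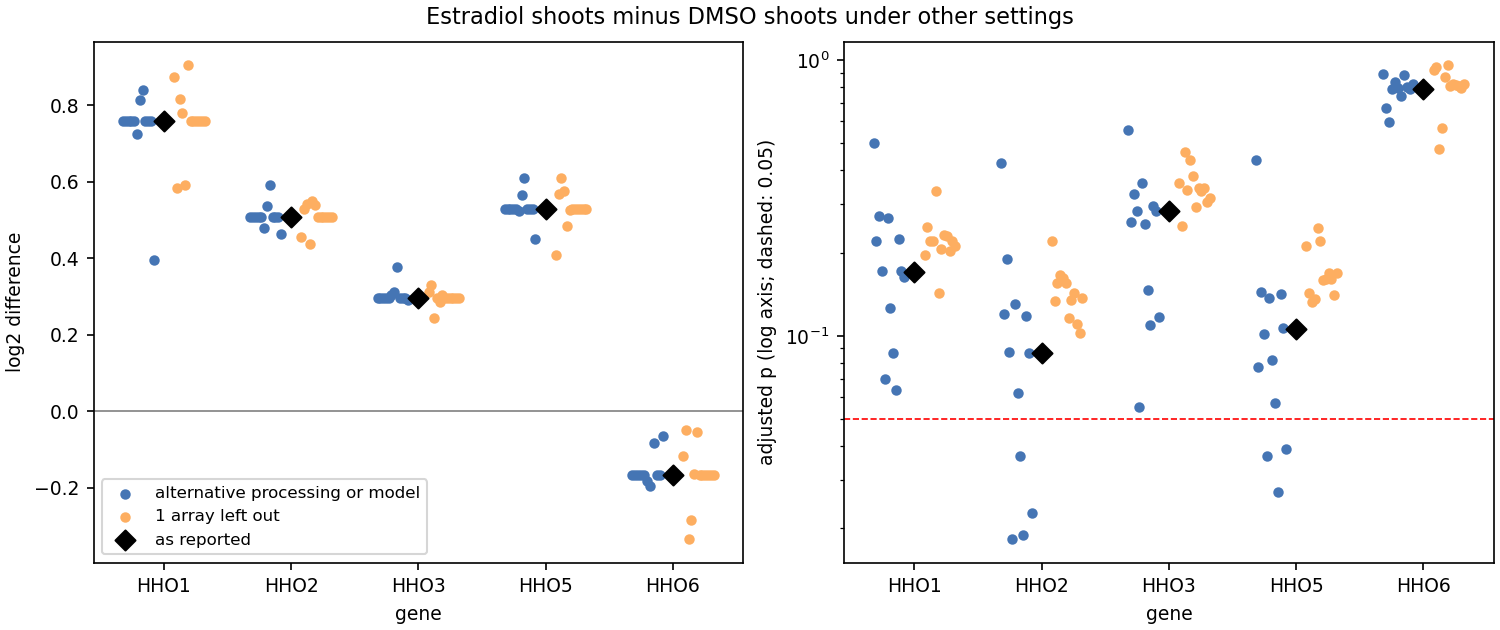
Estradiol minus DMSO shoots for each gene as reported (black), under other processing or models (blue) and with 1 array left out (orange): log2 difference (left) and limma's adjusted p on a log axis (right; the dashed line is 0.05). HHO2 ranges from 0.44 to 0.59 and HHO1 from 0.40 to 0.90; blue points of HHO2 and HHO5 lie under the line and no orange points do.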

How the data were processed

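The 12 arrays were grouped by sample title. The authors deposited log2 signal per probe set, and the submitters' processing notes name Affymetrix Expression Console 1.3 as the tool; its summarization and normalization settings are not given in these sources. The log2 scale was read from the values (0.339 to 14.1). Of 38408 probe sets, 16722 are paired with 1 gene in GEO's platform annotation, 759 with several and 20927 with none; only the first were used. A gene with several probe sets was represented by the brightest on average. Loci came from the RefSeq gene table (16411 genes matched).

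All 16550 genes were fitted in R 4.3.3 with limma 3.58.1 (lmFit, eBayes), with a mean per group and 8 residual degrees of freedom, with Benjamini-Hochberg adjustment over all of them. Intervals are unadjusted. The code was tested on simulated data. The number of arrays limits the precision. The clade, the gene lists and the rule for named genes were chosen with earlier results of these data known. By that rule all measured members were named, with the measured list genes (called ones, otherwise the 2 with the smallest p in shoots) and the 3 most similar genes per member; PHL2 and ARR18 in shoots, and the markers named there, were picked after their values were seen. Alternatives covered models, blocks, normalization, filters, a pseudocount and each array left out.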

Additional observations from a re-analysis of the deposited data

How the results depend on the processing

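Each value was recomputed under up to 12 other settings and with each of the 12 arrays left out. Estradiol minus DMSO shoots: 27 genes passed the threshold as reported, against 0 with organs fitted apart, 7 with array weights, 91 with trend and robust eBayes, 59 after array medians were subtracted (which moved the median of all genes to 0.08), 84 among genes above the median level, 77 with 16 added to the linear signal, and 0 to 19 with 1 array left out (0 without estradiol shoot replicate 1 or 3). HHO2 and HHO5 then passed at 0.51 and 0.53 with trend and robust eBayes and among genes above the median level, and at 0.46 and 0.45 with 16 added; HHO2 also passed at 0.59 after median subtraction. With 1 array left out none of the 5 passed. HHO1 lay between 0.58 and 0.90, HHO2 between 0.44 and 0.55, HHO3 between 0.24 and 0.33, HHO5 between 0.41 and 0.61, and HHO6 between -0.33 and -0.048. The interaction gave 1 gene with trend and robust eBayes and 0 to 1 with 1 array left out, none of them in the clade, and HHO6 lay between -0.087 and 0.20 there. In roots HHO2, at -0.0029, was 0.023 after quantile normalization and 0.045 after median subtraction, and between -0.067 and 0.056 with 1 array left out. Between DMSO organs 17967 probe sets passed when all were tested, against 8685 genes, and between estradiol organs 17714. HHO2 lay between -0.056 and 0.080 and HHO3 between -0.050 and 0.034 in the DMSO organs with 1 array left out. In the estradiol organs HHO3 missed the threshold at -0.17 after quantile normalization, at -0.23 after median subtraction and at -0.23 over all probe sets, and lay between -0.28 and -0.18 with 1 array left out. There HHO5 lay between -0.028 and 0.17 and HHO6 between -0.013 and 0.27. The cause of these changes was not tested. Same-numbered estradiol and DMSO arrays had deviations that correlated at 0.027 to 0.137 in shoots, where 5 of 6 arrays were closest to their own number, and at 0.054 to 0.078 in roots, where 6 of 6 were. Same-numbered shoots and roots correlated at 0.023 to 0.053 with estradiol and 0.050 to 0.098 with DMSO, 6 of 6 arrays closest to their own number in each, and may come from the same seedlings. This hints from the data, not the design, that same-numbered arrays share something, and what they share was not tested. Deviations within a group sum to 0 and each comparison was counted from both of its groups, so the 6 arrays are not separate observations. Only 2 of the 3 same-numbered estradiol and DMSO shoot pairs were over 0.1, the level used here to call samples paired. No pair of root arrays and no pair of a shoot and a root array was over it. With seedling set as a random block limma's adjusted p in shoots was 0.0872 for HHO2, 0.102 for HHO5, 0.172 for HHO1 and 0.284 for HHO3. With a replicate block the shoot differences were 0.76 for HHO1, 0.51 for HHO2, 0.30 for HHO3 and 0.53 for HHO5, with limma's adjusted p of 0.220, 0.120, 0.260 and 0.0769, and no call in the clade changed. HHO6 was not tested among genes above the median level, as it lies below it.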
